A study of Mus musculus with 37 samples.

Results

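The tailbud of the 7-somite embryo was compared between Smchd1 wt and Smchd1 matΔ embryos in 7 of the 37 libraries of the series, chosen by the somite number in their labels. Each library is the poly(A) RNA of one tailbud at E8-8.5, cut 1.5 somites caudal to the last segmented somite. The 4 Smchd1 wt embryos carried Smchd1[fl/+], from females with floxed Smchd1 alleles and no Cre transgene. The 3 Smchd1 matΔ embryos carried Smchd1[del/+], from Smchd1 del/fl females in which an MMTV-Cre transgene had left the oocytes null. All sires were Castaneus (Cast) males with intact Smchd1, so every embryo was C57BL/6/Cast F1 and kept a working paternal allele. The Smchd1 matΔ embryos therefore lacked the SMCHD1 protein of the oocyte and also one zygotic copy, and these cannot be told apart here. Whether an embryo had inherited the Cre transgene was not given in the sources used here. According to the paper, the MMTV-Cre animals also carried some FVB genome. Smchd1 wt replicates 1, 2 and 3 were male and replicate 4 was female, while Smchd1 matΔ replicates 1 and 2 were male and replicate 3 was female. The question was which genes differ with genotype at this single stage, in the tissue that will lay down the vertebral column.

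SMCHD1 is a noncanonical SMC-family chromatin protein that helps keep genes silent on the inactive X chromosome, at imprinted clusters, at clustered protocadherins and at Hox genes. The tailbud at this stage holds the remnant of the primitive streak, the neuromesodermal progenitors that give rise to both spinal cord and paraxial mesoderm, the forming neural plate and the presomitic mesoderm. Underneath lies the hindgut endoderm, into which visceral endoderm cells that make serum proteins have been folded, and primitive blood cells circulate close by.

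In units of 1e6 counts, depth was 3.06 to 15.5 per embryo at 7 somites and 0.916 to 80.6 over all 37 embryos. Of the 7, Smchd1 wt replicate 2 was the shallowest, and it stood apart on the first principal component of the 500 most variable genes (53.6% of their variance), at 47.0 against -14.7 to -3.93 in the other 6. Its summed level of 15 primitive erythroid markers was 1658 CPM (counts per 1e6 counts, scaled by the TMM method of edgeR) against 37.2 to 271 CPM in the others. Sex matched the labels in every embryo: Xist was 555 and 606 CPM in the females and at most 9.59 CPM in the males. Replicates differed by more than sampling noise (chi-square per degree of freedom 6.40 to 15.1), so each embryo was counted as its own replicate. Nothing in the labels ties embryos to litters, so p-values measure the spread between these 7 embryos only.

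Smchd1 itself (chr17:71344489-71475343, minus strand, GRCm38.p6) came first. Its level was 145, 128, 151 and 143 CPM in Smchd1 wt replicates 1 to 4 and 77.4, 99.4 and 88.6 CPM in Smchd1 matΔ replicates 1 to 3. The groups were clear of each other, with means of 142 ± 9.54 (SD, n = 4) and 88.5 ± 11.0 CPM (SD, n = 3). Its log2 fold change (Smchd1 matΔ minus Smchd1 wt, as for every fold change here) was -0.68 ± 0.099 (SE), the smallest p of all genes tested (edgeR quasi-likelihood test, unadjusted p = 2.32e-05), and the adjusted p was 0.338. At the other stages the difference was -0.99 to -0.55, and over their 30 embryos it was -0.75 (edgeR, adjusted p = 2.40e-05).

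No gene passed an adjusted p of 0.05 among the 14611 genes tested at 7 somites (0%). At an unadjusted p under 0.05 there were 705 genes (4.83%), with 299 higher (2.05%) and 406 lower (2.78%) in Smchd1 matΔ embryos. The median log2 fold change over all genes was -0.01. Leaving out 1 embryo gave 436 (without Smchd1 matΔ replicate 2) to 1138 (without Smchd1 wt replicate 3) genes at p under 0.05. The levels of the groups did not overlap for 491 genes higher (3.36%) and 346 genes lower (2.37%) in Smchd1 matΔ. DESeq2 passed 2 genes, Smchd1 and Ptprz1, and the exact test of edgeR passed these and Miat. Below, "higher" and "lower at p under 0.05" refer to the unadjusted p, and the counts of each gene group are read against the 2.05% and 2.78% of all genes.

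Promoter sequences of 4 genes that stand for the main groups are shown first: Apoa2 and Afp for the endoderm genes that were lower, Sox2 for the progenitor genes that were higher, and Peg12 for the imprinted gene that recurred at other stages. They are RefSeq windows on GRCm38.p6 running 250 bases before to 50 bases after the gene start, 5′ to 3′ on the gene's strand, with each CG dinucleotide and the TATA motif TATAAA in capitals. The windows are chr1:171224804-171225103 (plus strand) for Apoa2, chr5:90490464-90490763 (plus) for Afp, chr3:34649745-34650044 (plus) for Sox2 and chr7:62464461-62464760 (minus) for Peg12.
Apoa2: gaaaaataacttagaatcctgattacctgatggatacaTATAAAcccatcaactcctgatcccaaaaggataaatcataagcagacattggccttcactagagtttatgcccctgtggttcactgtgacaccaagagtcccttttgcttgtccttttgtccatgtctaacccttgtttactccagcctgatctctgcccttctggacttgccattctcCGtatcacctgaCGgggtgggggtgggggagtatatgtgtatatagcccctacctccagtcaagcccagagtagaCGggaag
Afp: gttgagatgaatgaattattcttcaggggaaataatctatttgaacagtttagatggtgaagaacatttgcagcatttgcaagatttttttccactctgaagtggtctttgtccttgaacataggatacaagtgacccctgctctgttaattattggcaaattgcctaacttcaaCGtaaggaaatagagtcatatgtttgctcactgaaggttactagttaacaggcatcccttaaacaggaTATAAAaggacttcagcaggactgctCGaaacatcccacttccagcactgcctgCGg
Sox2: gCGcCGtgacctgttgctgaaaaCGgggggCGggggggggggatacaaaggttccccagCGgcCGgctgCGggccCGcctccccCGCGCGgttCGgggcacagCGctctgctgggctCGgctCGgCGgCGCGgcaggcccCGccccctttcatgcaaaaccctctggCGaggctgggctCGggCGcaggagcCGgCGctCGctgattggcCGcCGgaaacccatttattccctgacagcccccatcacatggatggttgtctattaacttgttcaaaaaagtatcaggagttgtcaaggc
Peg12: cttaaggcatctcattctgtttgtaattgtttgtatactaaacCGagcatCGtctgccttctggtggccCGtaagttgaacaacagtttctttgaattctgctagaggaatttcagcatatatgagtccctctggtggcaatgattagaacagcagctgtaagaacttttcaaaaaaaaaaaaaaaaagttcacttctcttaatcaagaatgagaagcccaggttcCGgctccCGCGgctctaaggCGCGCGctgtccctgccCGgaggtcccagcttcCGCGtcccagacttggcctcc

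The endoderm promoters of Apoa2 and Afp each held 3 CG dinucleotides and 1 TATAAA match, whereas Sox2 held 27 and Peg12 12 CG dinucleotides with no TATAAA match on either strand. Matches were counted anywhere in the window, and in Apoa2 the match lies near its upstream end. A match is therefore not shown to be a working TATA box. TATAAA was present on either strand in 705 of 10670 promoter windows of tested genes (6.61%), and in 4 of the 20 windows found for the endoderm group (Afp, Apoa2, Apob and S100g). The median ratio of observed to expected CG dinucleotides was 0.388 over those 20 windows and 0.764 over all 10670. Windows were found for only 10670 of the 14611 genes tested, so these values are a description.

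The 12 genes with the smallest p in each direction, among those with a mean of at least 5 CPM, were named by rule. Their p chose them, and separate groups follow largely from a small p, so these values are a description. The 12 higher genes had log2 fold changes of 0.43 to 1.88, and for all 12 every Smchd1 matΔ embryo was above every Smchd1 wt embryo. The 12 lower genes had log2 fold changes of -1.58 to -0.35, and the groups were separate for 11 of them.

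**Figure D1:**
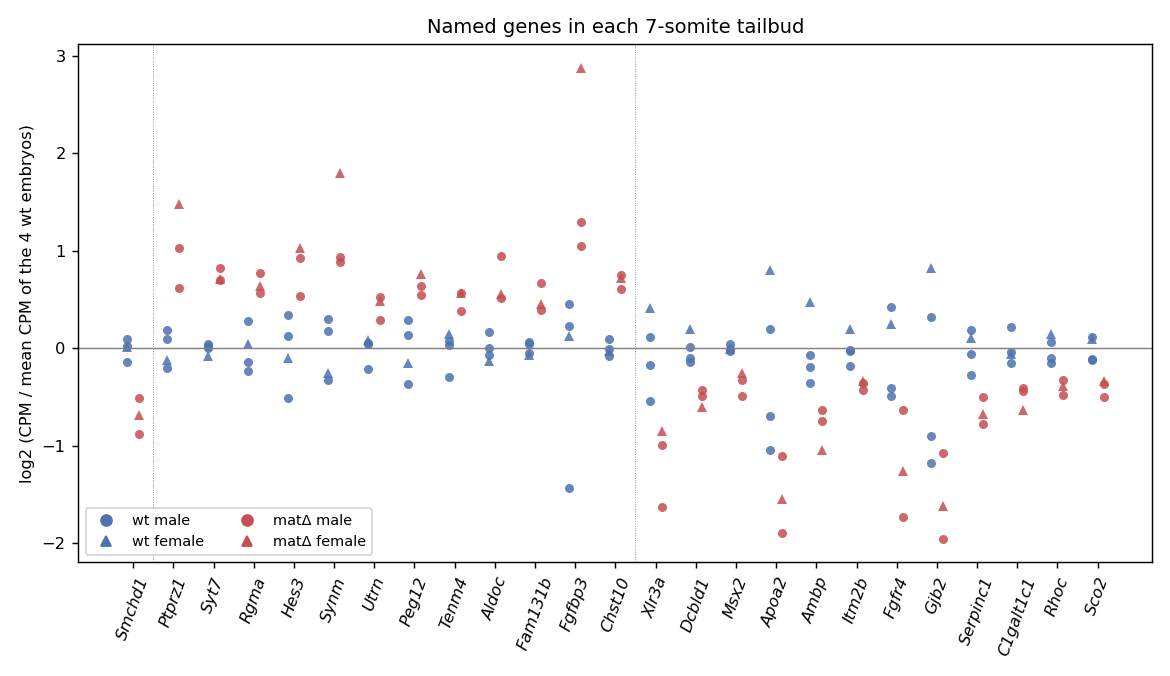
Level of Smchd1 and of the 12 higher and 12 lower named genes in each 7-somite tailbud, as log2 of the CPM over the mean CPM of the 4 Smchd1 wt embryos. Blue marks Smchd1 wt, red Smchd1 matΔ, circles males and triangles females. Each group of red points sits clear of the blue points except for Gjb2, and Smchd1 matΔ replicate 3 is far above the other embryos for Fgfbp3.

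Ptprz1, a receptor tyrosine phosphatase of neural progenitors and glia, was 10.6, 8.07, 9.93 and 8.51 CPM in Smchd1 wt and 18.9, 14.3 and 25.8 CPM in Smchd1 matΔ (log2 fold change 1.08 ± 0.20, SE). Hes3, a basic helix-loop-helix repressor of neural progenitors, was 11.7, 21.2, 18.2 and 15.6 CPM in Smchd1 wt and 31.8, 24.2 and 33.9 CPM in Smchd1 matΔ (0.87 ± 0.18). In both, the lowest Smchd1 matΔ embryo was replicate 2. Rgma, a repulsive guidance molecule and BMP co-receptor, and Syt7, a synaptotagmin, differed by 0.64 ± 0.13 and 0.75 ± 0.15. Syt7 was tight within groups, at 6.64 to 7.24 CPM in Smchd1 wt and 11.4 to 12.4 CPM in Smchd1 matΔ. Chst10, which makes the HNK-1 sulphated glycan, Tenm4, a teneurin adhesion receptor, and Fam131b differed by 0.69, 0.49 and 0.51. The remaining higher genes were the intermediate filament gene Synm (1.32), the dystrophin relative Utrn (0.43), the glycolytic aldolase Aldoc (0.68), the imprinted gene Peg12 and the FGF-binding protein gene Fgfbp3.

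Fgfbp3 (chr19:36917550-36919615) had the largest fold change of the 24. Its level was 3.18, 1.01, 3.73 and 2.97 CPM in Smchd1 wt and 5.62, 6.69 and 20 CPM in Smchd1 matΔ (1.88 ± 0.45, SE). The groups were separate, but the female, replicate 3, was far above both males. In Smchd1 wt embryos of the other stages Fgfbp3 fell by 0.54 on the log2 scale per somite (adjusted p = 6.43e-04, edgeR).

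Of the 12 lower genes, Apoa2 is also a member of the endoderm list described further on. This apolipoprotein gene of high-density lipoprotein was 23.7, 12.8, 10.0 and 36.0 CPM in Smchd1 wt and 9.58, 5.53 and 7.08 CPM in Smchd1 matΔ (-1.53 ± 0.40, SE). The groups were separate, though by a small margin, since Smchd1 wt replicate 3 and Smchd1 matΔ replicate 1 were close. Ambp, the precursor of alpha-1-microglobulin and bikunin, Serpinc1, which encodes antithrombin, the FGF receptor gene Fgfr4 and the connexin gene Gjb2 differed by -0.84, -0.64, -1.17 and -1.58. For Gjb2 the groups overlapped, with 5.04 to 20.2 CPM in Smchd1 wt and 2.95 to 5.41 CPM in Smchd1 matΔ. Msx2, a homeobox target of BMP signalling, was 63.3, 62.2, 65.2 and 62.9 CPM in Smchd1 wt and 45.1, 50.5 and 53.1 CPM in Smchd1 matΔ (-0.35 ± 0.09). Dcbld1 (-0.51), the membrane protein gene Itm2b (-0.37), the glycosylation chaperone gene C1galt1c1 (-0.47), the small GTPase gene Rhoc (-0.40) and Sco2 (-0.39), a copper chaperone of cytochrome oxidase, were also lower.

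The X-linked Xlr3a (chrX:73086293-73097095), of the lymphocyte-regulated family of near-identical copies, was 9.01, 5.71, 7.38 and 11.0 CPM in Smchd1 wt and 4.16, 2.68 and 4.59 CPM in Smchd1 matΔ (-1.15 ± 0.27, SE). All 4 Xlr genes tested were lower at p under 0.05, a family singled out after its values were seen. Xlr4a was 1.70 to 3.89 against 0.405 to 1.16 CPM (-1.89), Xlr4b 0.838 to 1.34 against 0.104 to 0.540 CPM (-1.39) and Xlr3b 3.35 to 9.54 against 0.675 to 4.02 CPM (-1.33), and the groups were separate for the first pair. Reads of such copies can be exchanged between them, so these are not 4 independent observations, and the lowest levels rest on few reads. Over the 30 embryos of other stages Xlr3a differed by 0.23 and Xlr3b by -0.06.

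**Figure D2:**
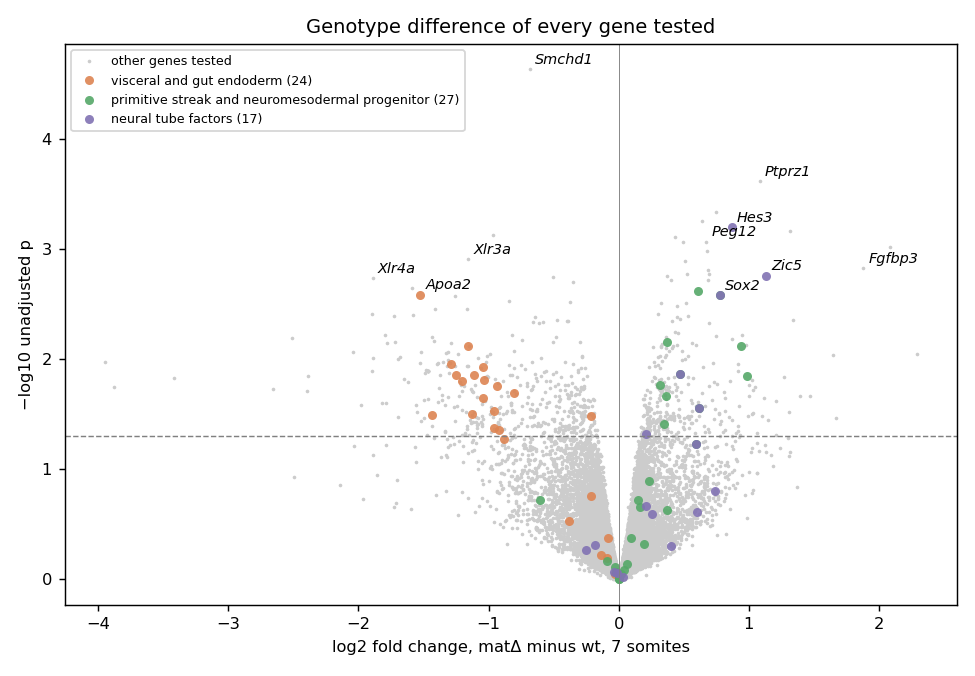
Genotype difference of each of the 14611 genes tested at 7 somites: log2 fold change (x axis) against -log10 of the unadjusted p (y axis), with 3 gene groups in colour and a dashed line at the unadjusted threshold of 0.05. Members of the endoderm group lie to the left, and many of the streak and neural groups to the right.

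The visceral and gut endoderm list had the largest share of members past the unadjusted threshold of the lists examined. All 24 genes were tested, all 24 had negative fold changes, and 17 were lower at p under 0.05 (70.8%, against 2.78% of all genes), with a median log2 fold change of -0.96. Apob, which encodes the structural protein of lipoproteins, was 592, 371, 275 and 976 CPM in Smchd1 wt and 322, 202 and 224 CPM in Smchd1 matΔ (-1.16 ± 0.36, SE). Afp, alpha-fetoprotein of visceral endoderm and fetal liver, was 353, 187, 154 and 666 CPM in Smchd1 wt and 197, 117 and 119 CPM in Smchd1 matΔ (-1.25 ± 0.43). For both genes the groups overlapped, with replicates 1 and 4 the high Smchd1 wt embryos. The secreted phosphoprotein gene Spp2, the endocytic receptor gene Cubn and Ttr, the transthyretin carrier of thyroid hormone, differed by -1.29, -1.11 and -1.05. Trf, the transferrin gene, Apoa1 and the retinol carrier gene Rbp4, named here after their values were seen, differed by -1.21, -1.04 and -1.04. The 2 members with separate groups were Apoa2 and Epcam, an epithelial adhesion gene (56.1 to 65.9 against 52.5 to 54.8 CPM).

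The same embryos set this pattern from gene to gene. Smchd1 wt replicate 4, a female, was the highest of the 7 embryos for 19 of the 24 genes, and Smchd1 matΔ replicate 2, a male, was the lowest for 16. All 3 Smchd1 matΔ embryos were below Smchd1 wt replicates 1 and 4 for 22 of the 24 genes, but below Smchd1 wt replicates 2 and 3 for only 3. The mean log2 level over the list, relative to the Smchd1 wt mean, was 0.24, -0.47, -0.56 and 0.78 in Smchd1 wt and -0.30, -1.04 and -0.75 in Smchd1 matΔ, so the groups overlapped. The summed level of 14 endoderm markers ran from 1674 to 4416 CPM in Smchd1 wt and from 1266 to 1910 CPM in Smchd1 matΔ, and none of the 14 was at 0. The members move together and are not independent of each other. The number lower at p under 0.05 was 6 without Smchd1 wt replicate 4, 9 without replicate 1, 3 without Smchd1 matΔ replicate 2, 6 without replicate 3, and 17 to 19 without any other embryo, while the median stayed between -1.28 and -0.53. Among the 5 males it was 2, with a median of -0.48, with DESeq2 it was 10, and in 1 fit of all 37 embryos it was 0, with a median of -1.08. In whole tailbuds fewer cells of a type and less RNA per cell cannot be told apart, here as for every group below.

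Genes of the primitive streak and neuromesodermal progenitors were higher in part. Of 27 tested, 10 were higher at p under 0.05 (37.0%, against 2.05% of all genes), none was lower, and the median was 0.20. Sox2, a factor of neural and neuromesodermal progenitors, was 19.6, 29.2, 32.3 and 21 CPM in Smchd1 wt and 34.6, 39.8 and 55.6 CPM in Smchd1 matΔ (0.78 ± 0.20, SE). Cdx1, a caudal homeobox gene upstream of Hox genes, was 113, 85.7, 99.9 and 119 CPM in Smchd1 wt and 144, 129 and 207 CPM in Smchd1 matΔ (0.61 ± 0.16). Nkx1-2, a homeobox marker of the caudal lateral epiblast, was 192, 167, 196 and 195 CPM in Smchd1 wt and 204, 237 and 288 CPM in Smchd1 matΔ (0.37 ± 0.11). All 3 genes had separate groups, and Smchd1 matΔ replicate 3 was the highest embryo for each. Wnt8a, a posterior Wnt ligand, was 12.9, 3.70, 7.98 and 9.22 CPM in Smchd1 wt and 12.7, 15.4 and 22.2 CPM in Smchd1 matΔ (0.94 ± 0.29), which overlapped.

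Others that were higher at p under 0.05, named after their values were seen, included Sox3 (0.62), Gbx2 (0.47), Nr6a1 (0.36), Sp8 (0.34) and Fgf8 (0.31). Fgf8, the ligand that keeps the caudal progenitors undifferentiated, was 32.0, 37.7, 41.2 and 35.6 CPM in Smchd1 wt and 50.2, 44.4 and 42.4 CPM in Smchd1 matΔ, separate by a small margin. T (Brachyury), the mesodermal T-box gene that defines the streak, did not pass the test and is also named after its values were seen. It was 192 to 314 CPM in Smchd1 wt and 214 to 313 CPM in Smchd1 matΔ (0.04 ± 0.16, SE).

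Averaged over the 27 genes, the level relative to the Smchd1 wt mean was 0.07, -0.12, 0.16 and -0.11 log2 units in Smchd1 wt and 0.29, 0.27 and 0.30 in Smchd1 matΔ. Every Smchd1 matΔ embryo was above every Smchd1 wt embryo on this score. The count of 10 was 5 without Smchd1 matΔ replicate 3 and 8 to 10 without any other embryo, and was 4 among the 5 males and 3 in 1 fit of all 37 embryos. With the endoderm marker level of each embryo as a covariate, it was 6.

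Neural tube factors overlapped this list: 4 genes were shared, 14.8% of the streak list and 23.5% of the neural list. Of 17 neural genes tested, 6 were higher at p under 0.05 (35.3%), none was lower, and the median was 0.40. These were Hes3, Sox2, Gbx2, Sox3, the adhesion gene Cdh2 (0.21) and Zic5. Zic5, a zinc-finger gene of the dorsal neural tube, was 3.36, 5.04, 3.99 and 5.03 CPM in Smchd1 wt and 6.35, 8.39 and 13.6 CPM in Smchd1 matΔ (1.13 ± 0.28, SE), with separate groups. The score of the list was 0.08, -0.38, 0.29 and 0.01 in Smchd1 wt and 0.50, 0.33 and 0.56 in Smchd1 matΔ, again without overlap but with Smchd1 wt replicate 3 close behind. With 1 embryo left out the count was 4 (without Smchd1 wt replicate 1 or Smchd1 matΔ replicate 3) to 6, and the median was 0.15 without Smchd1 wt replicate 4. The count was 3 among the 5 males and 3 with the endoderm covariate, and with a replicate block and sex 3 were higher and 1 lower. Over both lists 13 of 40 genes were higher at p under 0.05 (32.5%), and Smchd1 matΔ replicate 3, the female, was the highest embryo in 11 of the 13.

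**Figure D3:**
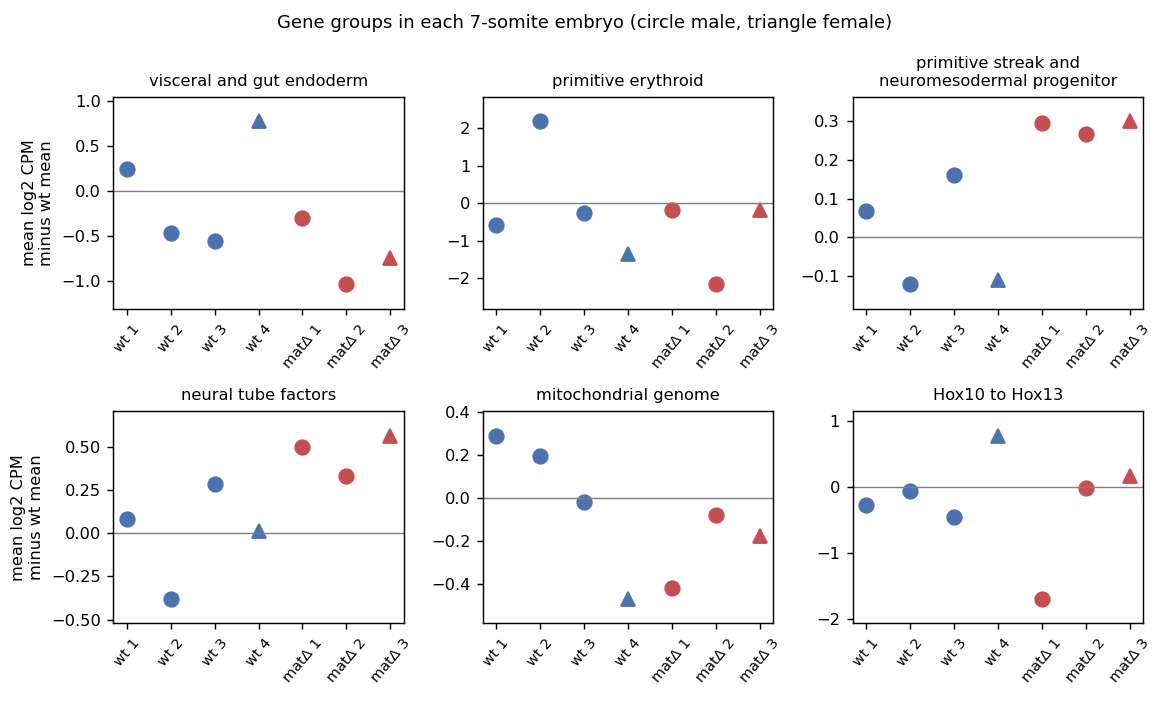
Mean log2 CPM over the members of 6 gene groups in each 7-somite embryo, relative to the mean of the Smchd1 wt embryos (blue, Smchd1 wt; red, Smchd1 matΔ; circles, males; triangles, females). The streak and neural scores of the Smchd1 matΔ embryos lie above those of all Smchd1 wt embryos, the endoderm scores overlap, and the erythroid score is carried by Smchd1 wt replicate 2.

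Signalling groups of the tailbud were short lists, read against 2.05% of all genes higher and 2.78% lower at p under 0.05. The FGF and Notch lists held larger shares of higher genes than that. Of 21 FGF ligand and response genes, 4 were higher, namely Fgfbp3, Fgf8, the ERK inhibitor gene Spred2 (0.22) and Fgf15 (0.28), and the list median was 0.15. The FGF count was 1 without Smchd1 matΔ replicate 1, 2 without Smchd1 matΔ replicate 3 or Smchd1 wt replicate 1, and 3 or 4 otherwise. In the Notch segmentation clock, 3 of 19 were higher: the receptor gene Notch1 (0.33 ± 0.10, SE), the ligand gene Dll1 (0.36) and the coactivator gene Maml3 (0.35), with a median of 0.03. The forkhead genes Foxc1 (0.75) and Foxc2 (0.98) were the 2 of 13 presomitic mesoderm genes that were higher, and Meox1 (1.0) was the 1 of 9 somite genes, at no more than 7.08 CPM in any embryo. Of 16 retinoic acid genes, the retinol transporter gene Stra6 (0.47) and the receptor gene Rxrg (0.66) were higher and the degrading enzyme gene Cyp26b1 (-1.33) was lower, the last at no more than 2.35 CPM in any embryo. BMP and Nodal genes had a median of -0.14 over 22 genes, and Msx2 and Id2 (-0.29), both BMP targets, were the 2 at p under 0.05. Their mean log2 level, relative to the Smchd1 wt mean, was -0.38, -0.02 and 0.02 in Smchd1 matΔ and -0.21 to 0.20 in Smchd1 wt. Only Smchd1 matΔ replicate 1 was thus outside the Smchd1 wt range, and over the 30 other embryos the median was 0.12. Gli2, a Hedgehog effector, was 20.4 to 24.3 CPM in Smchd1 wt and 28.5 to 32.6 CPM in Smchd1 matΔ (0.41), 1 of 2 higher among 15 node and notochord genes with Fgf8. Wnt feedback genes had 1 of 17 higher and a median of 0.05.

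**Figure D4:**
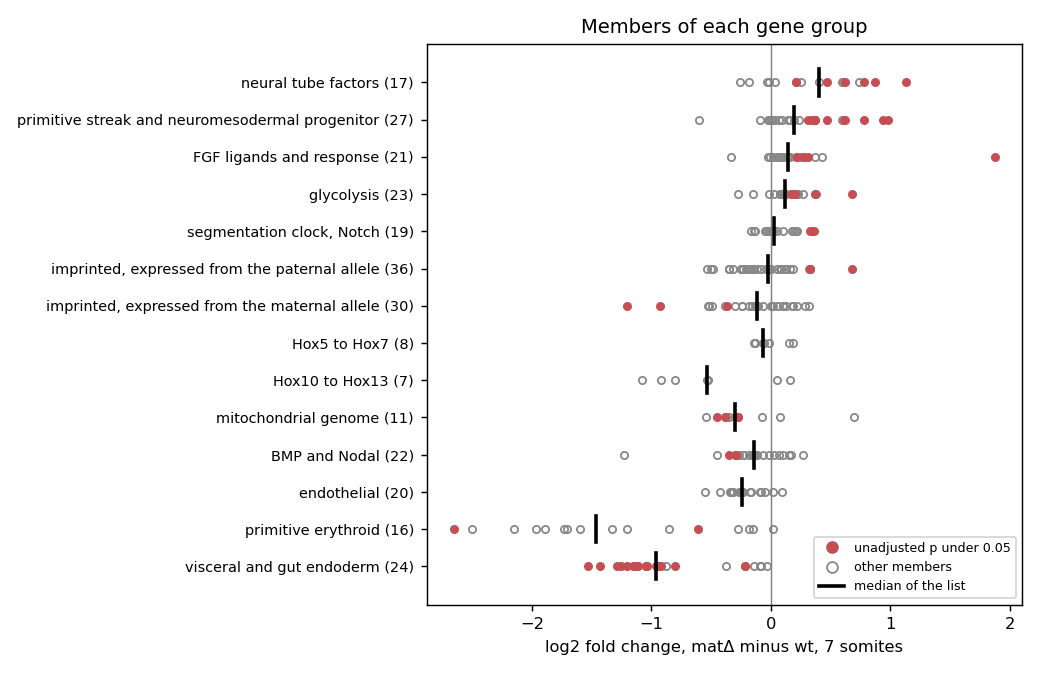
Log2 fold change at 7 somites of each tested member of 14 gene groups (number tested in brackets), with members at an unadjusted p under 0.05 filled in red and the median of each group as a black bar. The medians run from -1.46 (primitive erythroid) and -0.96 (endoderm) to 0.40 (neural tube factors).

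Hox genes, which set vertebral identity along the body axis, showed little difference between the genotypes at this stage. The files list 39 Hox genes, of which 34 were tested, 16 with positive and 18 with negative fold changes, and no gene had separate groups. Hoxd8 alone was at p under 0.05 (edgeR, unadjusted p = 0.0421), at 22.8, 38.3, 28.4 and 25.4 CPM in Smchd1 wt and 18.9, 22.6 and 23.1 CPM in Smchd1 matΔ (-0.38 ± 0.17, SE). The 27 genes of Hox1 to Hox9 ranged from -0.38 to 0.57. By level per length, in the deposited log2 RPKM values, Hoxb9 was the highest Hox gene, at 6.98 ± 0.24 (SD, n = 4) for Smchd1 wt against 7.12 ± 0.16 (SD, n = 3).

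The posterior genes of Hox10 to Hox13 had a median fold change of -0.53 over the 7 tested, none at p under 0.05. Smchd1 matΔ replicate 1 was the lowest embryo for 5 of the 7 and Smchd1 wt replicate 4 the highest for 5, and the median was -0.21 without the former, -0.20 without the latter and -1.13 without Smchd1 matΔ replicate 3. Hoxc10 was 0.42, 1.21, 1.09 and 1.81 log2 RPKM in Smchd1 wt and -1.88, 0.46 and 1.04 log2 RPKM in Smchd1 matΔ, a difference within the spread of the embryos.

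Imprinted genes were tested in 2 lists, 36 assigned to the paternal and 30 to the maternal allele. The allele was taken as listed and not measured here. For Zim1, Gnas and Copg2 in the first list the assignment is open to doubt. In the first list 2 were higher, Peg12 and the matrix protein gene Smoc1 (0.32 ± 0.09, SE), none was lower, and the median was -0.03. These counts moved with single embryos. Leaving out Smchd1 wt replicate 3 gave 4 higher and 5 lower, leaving out replicate 2 of Smchd1 matΔ gave 2 higher and 4 lower, and leaving out its replicate 1 gave 5 higher and none lower. Of the second, none was higher and 3 were lower: H19 (-0.37), Slc22a18 (-0.92) and Klf14 (-1.20), each with overlapping groups. None of these 3 was left at p under 0.05 without Smchd1 wt replicate 4 or without Smchd1 matΔ replicate 1. H19, a noncoding RNA, ran from 3900.4 to 6259 CPM in Smchd1 wt and from 3429 to 4081 CPM in Smchd1 matΔ.

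Peg12 (chr7:62461871-62464510, minus strand), a paternally expressed gene of the Prader-Willi cluster, was 15.2, 23.9, 21.4 and 17.6 CPM in Smchd1 wt and 30.5, 28.6 and 33.1 CPM in Smchd1 matΔ. The groups were separate, with means of 19.5 ± 3.86 (SD, n = 4) and 30.7 ± 2.29 CPM (SD, n = 3), and the log2 fold change was 0.67 ± 0.15 (SE; edgeR, unadjusted p = 8.50e-04, adjusted p = 0.962). In 1 fit over all 37 embryos it was positive at each stage, at 0.41, 0.67, 0.71, 0.23, 0.52 and 0.26 from 6 to 11 somites. Over the 30 embryos of the other stages, which had no part in naming it by the rule for 7 somites, it was 0.44 ± 0.08 (SE; edgeR, adjusted p = 0.0407). Smchd1 and Peg12 were the 2 of 14749 genes that passed there (0.0136%), and 649 were at an unadjusted p under 0.05 (4.4%). The gene was also named because earlier results of these data single it out.

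Other genes associated with SMCHD1, as targets, partners or Polycomb genes, differed little. Smchd1 was the 1 of 20 genes lower in the list of Smchd1 and linked silencing factors, and its partner gene Lrif1 differed by -0.27 ± 0.16 (SE). The clustered protocadherins had none at p under 0.05 among 13 alpha and 21 gamma genes tested, whose members share reads, and none of the 22 beta genes reached the count minimum. All 13 alpha (median -0.14) and all 21 gamma genes (median -0.04) had negative fold changes. Over the 30 other embryos none was positive either. Since members share reads, these are not independent values. On chromosome X, 10 of 495 genes were higher and 22 lower at p under 0.05 (4.44% lower), with a median of -0.02, and among the 5 males the median of 492 genes was -0.05. Polycomb group genes had 1 of 13 PRC2 genes higher (Jarid2, 0.27) and, among 21 PRC1 genes, 1 higher (Kdm2b, 0.24) and 1 lower (Cbx7, -0.41).

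Blood and vessel genes were compared as markers of other cells in the dissected tissue. Of 16 primitive erythroid genes tested, 2 were lower, Hbb-bs (-2.65) and Tal1 (-0.61), and the median was -1.46. Hbb-bs, an adult-type beta globin gene, was 25.4, 51.1, 2.63 and 4.96 CPM in Smchd1 wt and 6.35, 0.714 and 2.16 CPM in Smchd1 matΔ. Smchd1 wt replicates 1 and 2 were the high embryos, and the list median was -0.02 without replicate 2 and -0.93 without Smchd1 matΔ replicate 2. None of 20 endothelial genes was at p under 0.05 (median -0.25). The summed endothelial markers ran from 289 to 471 CPM in Smchd1 wt and from 286 to 402 CPM in Smchd1 matΔ.

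Fold changes of the metabolic groups were mostly small. Of 23 glycolysis genes 4 were higher, Aldoc, Pfkl (0.20), Hk2 (0.37) and Aldoa (0.17), against 2.05% of all genes, with a median of 0.12. Over the 30 other embryos 8 of 24 were higher (median 0.10), against 352 of 14749 genes tested there (median 0.006). The number of glycolysis genes higher was 1 without replicate 1 of either genotype or without Smchd1 matΔ replicate 2, 2 without Smchd1 wt replicate 4, and 7 without replicate 3 of either genotype, and 1 was lower without Smchd1 wt replicate 1. Of 11 genes of the mitochondrial genome, 4 were lower, mt-Nd6 (-0.45), mt-Nd2 (-0.39), mt-Co1 (-0.28) and mt-Cytb (-0.27), with a median of -0.30. The mitochondrial count was 0 without Smchd1 matΔ replicate 1, while dropping Smchd1 wt replicate 1 or 4 gave 1 or 8. The share of all counts from the mitochondrial genome was 0.726% to 0.990% in Smchd1 wt and 0.664% to 0.803% in Smchd1 matΔ.

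Whether these embryos were matched in developmental age was measured with an index of 894 genes whose level changed with somite number (343 rising, 551 falling) in the 17 Smchd1 wt embryos of the other stages. The predicted somite number was 6.30, 8.60, 7.88 and 6.25 in Smchd1 wt and 7.47, 7.72 and 7.26 in Smchd1 matΔ. The Smchd1 matΔ embryos fell within the range of the Smchd1 wt embryos, at 7.48 ± 0.23 (SD, n = 3) against 7.26 ± 1.17 (SD, n = 4). The difference of 0.23 somites was within the spread (two-sided exact permutation test, p = 0.83, where 0.0286 is the smallest p the design allows). The index missed the somite number of training embryos by 1.21 (root mean square, each left out in turn).

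Smchd1 wt replicates 1 and 4, with the lowest predicted somite numbers, were also the 2 with the highest endoderm levels. Of 504 tested genes that fall with somite number in Smchd1 wt, 102 were lower in Smchd1 matΔ at p under 0.05 (20.2%, against 2.78% of all genes) and 15 were higher, with a median of -0.16. Without the endoderm list the count was 91 of 492. For the list with the endoderm genes included it was 31 without Smchd1 wt replicate 4, 67 without replicate 1, 44 without Smchd1 matΔ replicate 2, 57 without replicate 3, and 101 to 150 without any other embryo, and 16 among the 5 males. With the endoderm marker level of each embryo as a covariate, 4 were lower and 25 higher. Of 326 tested genes that rise with somite number, 8 were higher and 7 lower (median 0.01). How far the predicted age of single Smchd1 wt embryos takes part in the endoderm difference was not tested.

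The genotype effect at 7 somites was then set against that of the other 30 embryos (17 Smchd1 wt and 13 Smchd1 matΔ), whose libraries had no part in choosing genes at 7 somites. In a direct test of the difference between the effects, none of 16729 genes passed an adjusted p of 0.05 (0%), and 236 were at an unadjusted p under 0.05 (1.41%). Of the 705 genes at p under 0.05 at 7 somites, 691 were tested in the 30 others, and 339 had the same sign there (49.1%), against 7405 of 14445 genes tested in both (51.3%). Among the 691, 25 were at p under 0.05 in the 30 others with the same sign and 3 with the opposite sign. Of all 14445 genes tested in both, 638 were at p under 0.05 in the 30 others.

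Of the 12 higher genes, 11 kept their sign over the 30 others, with fold changes of -0.01 to 0.44, and Peg12 alone was at p under 0.05. Of the 12 lower genes, 4 kept their sign, with fold changes of -0.24 to 0.53, and none was at p under 0.05. The effect at 7 somites differed from that of the other stages at an unadjusted p under 0.05 for 6 of the 12 higher genes, among them Fgfbp3 (difference 1.69 ± 0.50, SE; unadjusted p = 0.00202) and Syt7 (0.75 ± 0.23; unadjusted p = 0.00304), and for 5 of the 12 lower genes, none past the adjusted threshold (edgeR). The 7-somite embryos whose p chose these genes also enter that test, so its counts and p-values here are a description. Serpinc1 was the lower gene with a negative value at every stage. At single stages the higher genes shared their sign in 12 of 12 at 10 somites and 10 at 8 somites but only 2 at 9 somites, and the lower genes in 10, 10 and 2 at the same stages.

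In 1 fit pooling the 30 embryos of the other stages, the endoderm genes had the opposite sign. All 24 had positive fold changes there, with a median of 0.59 and 1 at p under 0.05. They move together, and a pooled fit does not give the sign at each stage. Apoa2 was at 0.53 ± 0.51 (SE) there and Afp at 0.73 ± 0.61, against -1.53 and -1.25 at 7 somites. Of the 27 streak genes, 23 had positive fold changes over the 30 others, against 22 at 7 somites. The median there was 0.09 and 3 were higher at p under 0.05, with Fgf8 among them at 0.33 ± 0.14 (edgeR, unadjusted p = 0.0230). Of all 14749 genes tested there, 7697 had positive fold changes and 352 were higher at p under 0.05. The difference between stages for Apoa2 was -2.16 ± 1.17 (SE, edgeR, unadjusted p = 0.0734) and for Sox2 0.57 ± 0.31 (edgeR, unadjusted p = 0.0823). Both genes were named by their p at 7 somites, so these differences are a description too.

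**Figure D5:**
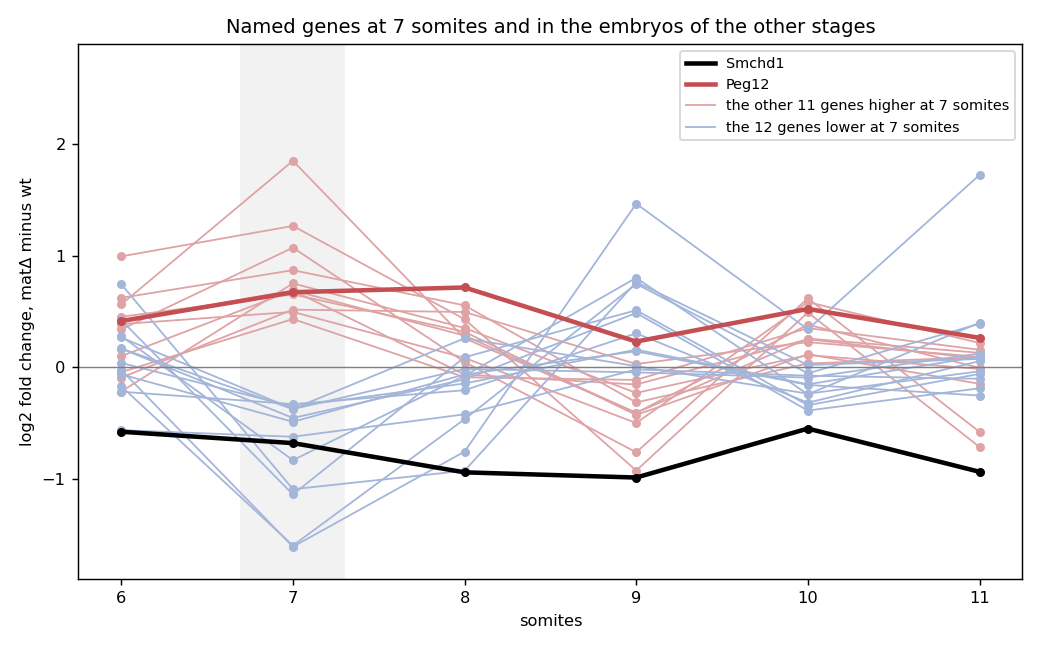
Log2 fold change (Smchd1 matΔ minus Smchd1 wt) of Smchd1, Peg12 and the other named genes at each somite number, from 1 fit over all 37 embryos, in which values at 7 somites differ slightly from those of the fit to the 7 embryos alone. Smchd1 is below 0 and Peg12 above 0 at each stage, whereas most of the other genes named at 7 somites (grey band) have the sign they have there at 8 and 10 somites and the opposite sign at 9 somites.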

How the data were processed

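Poly(A) RNA-seq libraries of single tailbuds were used, 7 from embryos with 7 somites and 30 from the other stages. According to the sample labels and published methods, the authors prepared them with TruSeq kits of 2 kinds, stranded or not (which library had which was not stated, so a batch by kit could not be examined), trimmed reads with Trim Galore 0.4.4, mapped them to GRCm38.p6 with HISAT2 2.0.5 and counted genes in SeqMonk. The deposited counts per gene are whole, not normalised and not known to use strand, so genes that overlap or run antisense to another have uncertain values. The authors also deposited log2 RPKM values of 39 Hox genes. A further table of the authors' calls (p-values with their false discovery rates, and fold changes) was not used, nor were the mean and fold columns of the Hox table. Of 35591 rows, 49 repeated an identifier and were dropped, and 26 symbols turned into dates were restored.

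For tests across genes, the deposited counts were fitted with edgeR 4.0.16 (R 4.3.3). The two-sided quasi-likelihood test was used, with filterByExpr at a minimum count of 10, TMM, Benjamini-Hochberg adjustment and a threshold of 0.05. Genotype was the only term for the 7 embryos, and somite number and sex were further terms for the 30. The fit of all 37 embryos gave each combination of genotype and somite number its own group, with sex as a further term, and compared groups by contrasts. Log2 CPM values carry a prior count of 2. Depth was 3.06 to 15.5 in units of 1e6 counts, where 3 counts, taken as a floor for counting error only, equal 0.193 to 1.01 CPM. Named genes were Smchd1, Peg12, the 12 higher and 12 lower genes of smallest p with a mean of at least 5 CPM and no predicted or clone name, the up to 4 of smallest p in each list, and some of the genes past the adjusted threshold in another fit. The members and lists were chosen with earlier results of these data known. The tests were tried on simulated data. Alternatives were sex as a covariate, males alone, a replicate block, all embryos in 1 fit, DESeq2 1.42.0, limma 3.58.1 (voom), other scalings and filters, and each embryo left out. The endoderm covariate and some counts with embryos left out were added after seeing the data. No per-sample column was left unused. The values of a further gene are not reported here.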

Additional observations from a re-analysis of the deposited data

Results flagged for a closer look

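Of 107 measures examined within the 4 Smchd1 wt embryos, 4 had a single embryo far from the other 3, and chance alone sets about 1 in 20 such groups apart. Utrn was 72.6 CPM in Smchd1 wt replicate 2 against 86.6 to 89 CPM in the others. Nkx1-2 was 167 CPM in the same embryo against 192 to 196 CPM. The summed erythroid markers were 1658 CPM in it against 62.0 to 194 CPM. Stra6 was 15.1 CPM in Smchd1 wt replicate 4 against 21.9 to 22.3 CPM.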

How the results depend on the processing

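The count of genes past the adjusted threshold, 0 in the test reported, was 1 with no filter on low counts (Smchd1), 2 with DESeq2, 3 with the exact test and 3 with the likelihood ratio test of edgeR, and 0 with each embryo left out. Replicate numbers did not pair the embryos (correlations of deviations for equal numbers -0.12, 0.01 and 0.04). With a replicate block over replicates 1 to 3 the count was 1 (Prl8a2), and 20 with sex added to the block. The 20 included the endoderm genes Apob, Cubn, Ttr and Afp. Of these replicates only replicate 3 differed in sex between genotypes, so the fit with sex rests on replicates 1 and 2. At an unadjusted p under 0.05 the 705 genes became 421 in males alone, 468 with the replicate block, 243 in 1 fit of all 37 embryos, 457 with the endoderm covariate, and 436 to 1138 with 1 embryo left out. The 236 genes whose effect differed between stages became 738 against 6 somites alone, 142 against 8 somites alone, 520 with no filter and 154 to 430 with 1 embryo left out, with 0 past the adjusted threshold each time. The difference in predicted somites turned to -0.30 with the 100 genes of smallest p (exact permutation p = 0.686) and ranged from -0.11 to 0.67 with 1 embryo left out, negative without Smchd1 wt replicate 1 or 4, and was 0.0044 in males. Of 1216 values of 94 named genes, 1210 kept their direction. Under the endoderm covariate Hoxa11 turned to 0.093, Rbp4 to 0.038 and T to -0.10. Rbp4 is itself among the markers summed in that covariate, so its value there is not a separate observation. T was -0.082 with the replicate block and -0.12 to 0.16 with 1 embryo left out. The causes of these changes were not tested. Depth limits the genes under about 1 CPM in Smchd1 wt replicate 2.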

Other observations

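The other gene groups described here held at most 3 genes past the unadjusted threshold at 7 somites. Over all genes 2.05% were higher and 2.78% lower, and 6906 fold changes were positive and 7705 negative. Of 29 collagen genes 3 were higher, Col4a5 (0.24), Col4a6 (0.36) and Col13a1 (0.32), with a median of 0.08. Of 24 cholesterol synthesis genes 22 had positive fold changes, with a median of 0.06, and Mvd (0.32), an enzyme of the mevalonate pathway, was the 1 higher. The mean log2 level of this list, relative to the Smchd1 wt mean, was -0.17 to 0.09 in Smchd1 wt and 0.02 to 0.13 in Smchd1 matΔ. The groups thus overlapped, and replicate 4 was the lowest Smchd1 wt embryo. Of 77 cytosolic ribosomal protein genes 72 had negative fold changes, with a median of -0.10 and none past the threshold. The mean log2 level of this list, relative to the Smchd1 wt mean, was 0.30 in Smchd1 wt replicate 2 and -0.14 to -0.04 in the other Smchd1 wt embryos. In Smchd1 matΔ it was -0.22 to -0.04, so the groups overlapped. With 1 embryo left out the median was -0.16 to -0.004. The immediate early gene Egr1 was 1.01 to 1.53 CPM in Smchd1 wt and 0.416 to 0.675 CPM in Smchd1 matΔ (-1.32), the 1 of 18 in its list that was lower. None of 18 aminoacyl-tRNA synthetase genes and none of 19 heat shock genes was at p under 0.05 in the edgeR test.

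Some genes passed only in single alternatives or lie outside the named sets. Miat, a noncoding RNA, was 0 to 0.530 CPM in Smchd1 wt and 1.56 to 1.82 CPM in Smchd1 matΔ. Prl8a2, a prolactin-family gene of the maternal decidua, was 40.3, 11.1, 0.509 and 4.84 CPM in Smchd1 wt and 2.71, 0.0893 and 0.135 CPM in Smchd1 matΔ, with the spread within Smchd1 wt wider than the gap between the groups. BC065397, a transcript on chromosome X singled out after its values were seen, was 13.5 to 24.2 CPM in Smchd1 wt and 8.21 to 10.7 CPM in Smchd1 matΔ (-0.97 ± 0.21, SE; edgeR, adjusted p = 0.962).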
